A study of Mus musculus with 9 samples.

Results

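The genes described here are 10 genes that the RAS–ERK pathway is known to switch on and that mostly act back on it: the dual-specificity phosphatases Dusp4, Dusp5 and Dusp6, the Sprouty genes Spry1, Spry2 and Spry4, the Sprouty-related genes Spred1 and Spred2, and the ETS factors Etv4 and Etv5. They were chosen by symbol among the 15384 genes of the count table. Rows were found for 8 of the 10, and Spry1 and Spry2 are not analysed here. Of the 8, 7 had enough counts to be tested, and Dusp5 did not.

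ERK is the last kinase of a cascade that runs from receptor tyrosine kinases such as HER2 and HER3 through RAS, RAF and MEK. Active ERK drives transcription of its own inhibitors: Dusp proteins remove phosphate from MAP kinases, Sprouty proteins act between the receptor and RAF, and Spred proteins bring neurofibromin to the membrane, where it switches RAS off. Etv4 and Etv5 are transcription factors of the PEA3 group whose mRNA follows ERK activity in many epithelia. Several of the genes described here are widely read as a record of ERK output.

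MyC-CaP, an epithelial-like mouse line grown from a prostate tumor of a Myc-transgenic mouse, was treated with recombinant mouse ASPN (asporin), a protein secreted by fibroblasts of the tumor stroma, at 100 ng/mL. RNA-Seq was done on 3 libraries each at 0, 12 and 24 hours, after 6 to 12 hours of starvation in medium without serum or calcium. The study asked which transcripts change when extracellular ASPN reaches prostate cancer cells. All 9 libraries are labeled as ASPN-treated, even those of 0 hours, which served as the starting point. Because no 12- or 24-hour library of untreated cells was analysed here, the effect of ASPN and that of the hours in culture after starvation cannot be told apart in any comparison with time 0. The replicates were wells of 1 cell line, and p-values measure the spread between wells.

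Total counts were 41881191 to 52993821 per library, and 3 counts, taken as the floor, were 0.0566 to 0.0716 CPM (a count relative to the library total). This floor is not TMM scaled, whereas the CPM of genes given below are. TMM scaling factors were 1.04 to 1.07 at 0 and 12 hours and 0.899 to 0.914 at 24 hours. Among markers of epithelium, Krt8 was expressed (25.5, 26.4 and 38.02 CPM at the 3 times), whereas Krt18 had 2 to 22 counts per library, Cdh1 0 to 10 and Epcam 0 to 1, so these 3 defining epithelial markers were at or near 0 in this line. The summed level of 4 fibroblast genes, mostly Pdgfra, with Pdgfrb at 3 counts or fewer, was 13.0 to 14.1, 12.2 to 12.5 and 9.09 to 10.3 CPM at 0, 12 and 24 hours. Pdgfra had a log2 fold change of -0.51 at 24 hours (adjusted p = 0.000128), under 1.5-fold, and Dcn, with 7 to 29 counts per library, was called higher there (2.30-fold, SE 0.499 on the log2 scale, adjusted p = 0.0437). The summed level of 4 leukocyte genes was 0.270 to 0.815, 0.328 to 0.646 and 0.611 to 0.746 CPM at the 3 times, with Itgam and Cd3e at 3 counts or fewer, and that of 3 endothelial genes 0.110 to 0.145, 0.0656 to 0.183 and 0.0414 to 0.122 CPM, with Cdh5 at 3 counts or fewer. The part of these markers in the 24-hour results was not tested.

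A repressor links several of these genes. Capicua, the product of Cic, binds short DNA elements near Etv4, Etv5, Dusp6 and Spry4 in mammalian cells, and ERK signaling relieves that repression. The 250 bases before the RefSeq transcription starts (GRCm38.p6) were searched on both strands for 4 forms of the Capicua element, of which the first is TGAATGA and the next is the form TGAATGG, while the others with a changed second letter are TCAATGA and also the form TCAATGG. An ETS element was searched as CCGGAAG, an AP-1 element was searched as TGACTCA and a CRE element was searched as TGACGTC. No match overlapped another in the windows shown. RefSeq entries were found for 5 of the 8 genes, Dusp5, Dusp6, Spred1, Spred2 and Etv5, in 6 windows. Capicua strings were present in 3 of these, against 9.53% of 32851 promoter windows of the same length. The windows shown are the pair with more than 1 Capicua string and that of Spred1, the member with the largest decrease at 24 hours, and capitals mark the Capicua strings. The Dusp6 window (chr10:99262981-99263230, plus strand, directly before the gene) held 2, a number reached by 0.767% of windows. The window at the second Etv5 start (chr16:22438369-22438618, minus strand, within the span of the gene) held 3, reached by 0.0974%. The Spred1 window (chr2:117120821-117121070, plus strand, upstream of the gene) held none.
Dusp6: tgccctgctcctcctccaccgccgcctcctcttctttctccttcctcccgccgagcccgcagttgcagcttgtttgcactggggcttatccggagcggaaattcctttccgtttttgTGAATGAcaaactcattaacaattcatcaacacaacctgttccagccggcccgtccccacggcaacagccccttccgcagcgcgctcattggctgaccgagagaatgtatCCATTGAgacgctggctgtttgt
Etv5: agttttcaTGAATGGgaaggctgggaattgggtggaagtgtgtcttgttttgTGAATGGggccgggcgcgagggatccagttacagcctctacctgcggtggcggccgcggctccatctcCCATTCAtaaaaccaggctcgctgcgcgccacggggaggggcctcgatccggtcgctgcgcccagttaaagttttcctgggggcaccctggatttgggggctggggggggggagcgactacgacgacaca
Spred1: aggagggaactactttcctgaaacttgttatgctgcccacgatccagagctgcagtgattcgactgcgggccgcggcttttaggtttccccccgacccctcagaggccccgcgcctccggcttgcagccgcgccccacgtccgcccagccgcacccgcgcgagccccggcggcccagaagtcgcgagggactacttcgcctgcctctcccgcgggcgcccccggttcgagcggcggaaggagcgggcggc
Dusp5 had 1 Capicua string, and Spred2 and the first Etv5 start had none. Neither the ETS nor the AP-1 string occurred in any of the 6 windows, while the CRE string occurred once, in Spred2 (2.78% of all windows). These matches describe letters in a window and were not tested as binding sites.

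Levels of the genes were compared per kilobase of exon (RPKM). At time 0 the order was Dusp6 at 27.4 RPKM, Spred2 at 21.1, Etv4 at 15.2, Spred1 at 14.8, Dusp4 at 12.0, Etv5 at 4.81, Spry4 at 0.359 and Dusp5 at 0.0142. The ranges of Etv4 and Spred1 overlapped, and all other neighbors stood apart. The order was the same at 12 hours. At 24 hours Dusp6 led with 36.3 RPKM, Spred2 (18.3) and Etv4 (17.9) overlapped, and Dusp4 (14.8) had passed Spred1 (8.54), which was followed by Etv5 at 2.86, Spry4 at 0.223 and Dusp5 at 0. MyC-CaP cells thus carried chiefly Dusp6 and Dusp4, both Spred genes and Etv4, with little Etv5 and almost no Spry4 or Dusp5 mRNA.

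**Figure D1:**
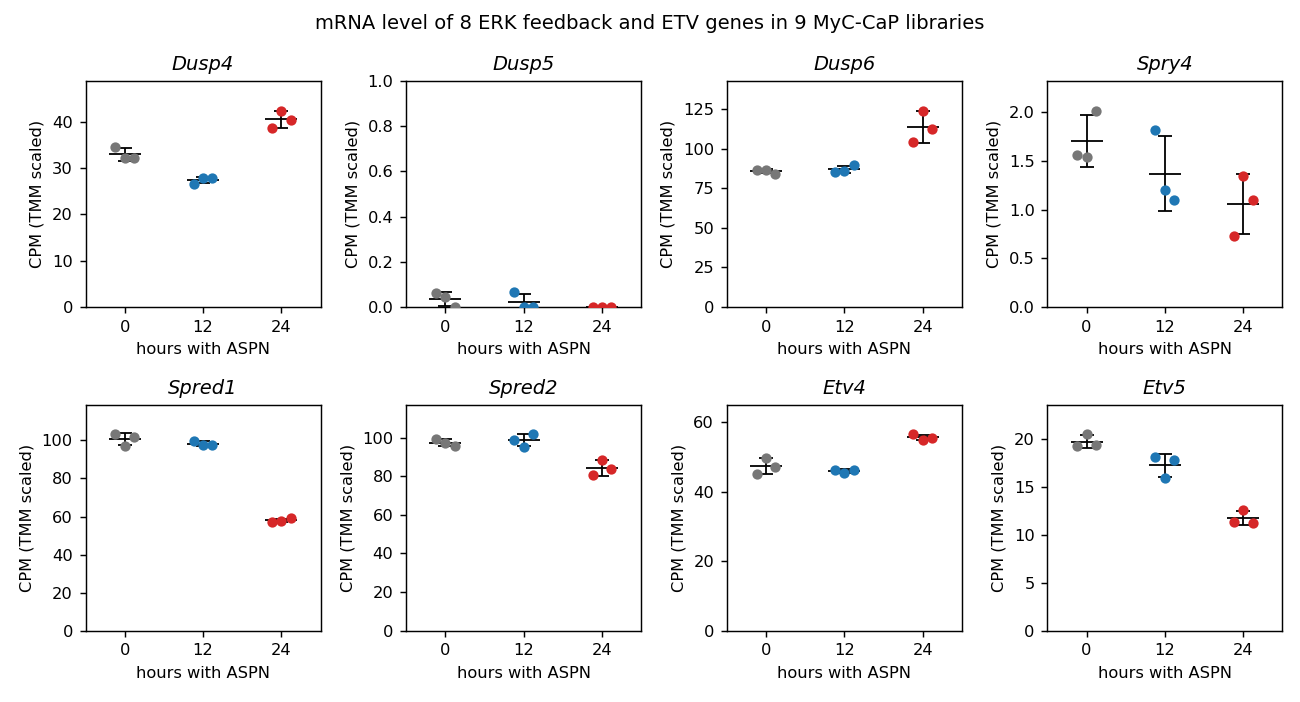
TMM-scaled CPM (vertical axes, each from 0) of the 8 genes against hours with ASPN. Points are libraries, horizontal bars the mean and error bars the SD of 3 libraries. The 24-hour Spred1 libraries sit at 57.1 to 59.1 CPM, below all others, and Dusp5 stays below 0.1 CPM.

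At 12 hours the log2 fold changes of the 7 tested genes against time 0 ran from -0.31 for Spry4 to 0.02 for Spred2. The Spry4 end of this range depended on single libraries, with -0.57 without 12-hour replicate 1, -0.23 without 12-hour replicate 2, -0.18 without 12-hour replicate 3 and -0.17 without time 0 replicate 3, and its adjusted p was 0.175 or more without any 1 library. A call required both a change of at least 1.5-fold and, in edgeR's quasi-likelihood test, a p no larger than 0.05 after Benjamini-Hochberg adjustment. In edgeR's test 0 of the 7 genes were called, against 1.6% of 11410 genes tested, and the unadjusted p was under 0.05 for 2. The adjusted p alone passed 1 gene, Dusp4, against 10.3% of all genes. The groups did not overlap for 2 of the 7, Dusp4 and Etv5, against 27% of all genes, and both were lower at 12 hours, as 13.6% of all genes were. The median log2 fold change of the 7 was -0.039, beside -0.005 for all genes. DESeq2 also called 0 of the 7.

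By 24 hours the genes had moved apart. Of the 7, 3 were called against time 0 and all 3 were lower: Spred1, Etv5 and Spry4, against 28.8% of 11444 genes called in either direction and 16.8% called lower. After a correction for length and GC content, 1 of the 7 was called, Spred1. The other 4 passed the adjusted p with changes under 1.5-fold: Dusp6, Dusp4 and Etv4 were higher, though Dusp4 and Etv4 did not pass with total counts in place of TMM factors, and Spred2 was lower, with a sign that turned after the length and GC correction. All 7 had groups that did not overlap, and all 7 passed the adjusted p alone, but so did 73.9% and 70.9% of all genes, so both counts are near the background. The median log2 fold change of the 7 was -0.20, beside -0.016 for all genes. In bulk RNA, fewer cells with a transcript and less of it per cell cannot be told apart.

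Between 12 and 24 hours, 2 of the 7 were called, Dusp4 higher and Spred1 lower, against 25.7% of 11394 genes (10.4% higher and 15.3% lower). The groups did not overlap for 6 of the 7, against 73.9% of all genes, and the same number passed the adjusted p alone, against 71.3%. Spry4 was the exception in both. The median log2 fold change was -0.203, beside 0.004 for all genes. The comparisons at 24 hours share their 24-hour libraries, and those against time 0 share the time 0 libraries.

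**Figure D2:**
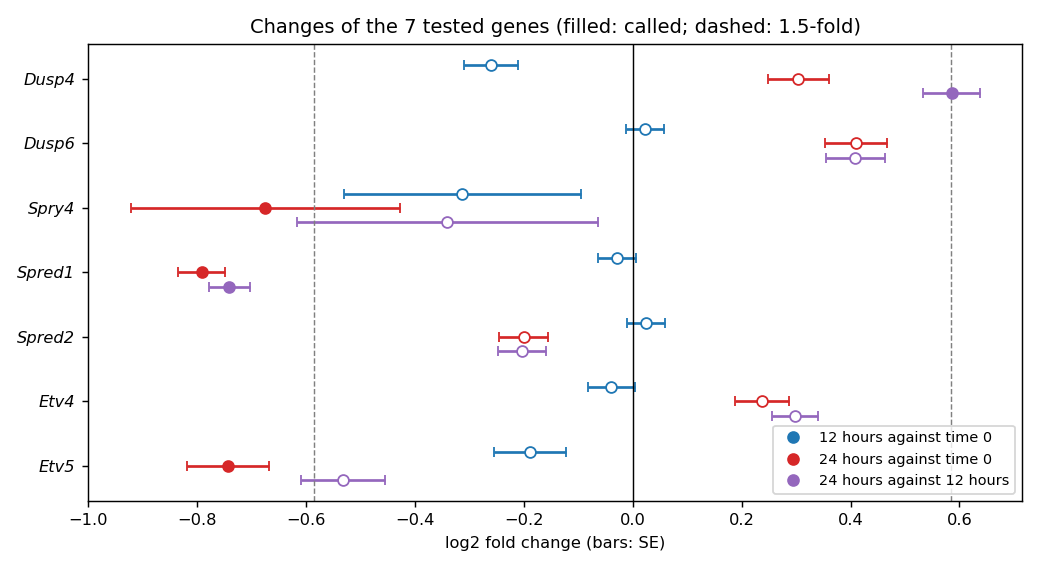
Log2 fold changes of the 7 tested genes (horizontal axis) in 3 comparisons, with the SE as bars, filled points for called genes and dashed lines at 1.5-fold. At 12 hours all points are open, and at 24 hours Spred1 (-0.79), Etv5 (-0.74) and Spry4 (-0.68) lie beyond the lower line.

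Among the phosphatases, Dusp6 removes phosphate from ERK in the cytoplasm and is one of the transcripts most often used to gauge ERK activity (chr10:99263231-99267489, plus strand). Its level was 86.8, 86.5 and 84.2 CPM at time 0, 85.2, 85.9 and 89.6 at 12 hours, and 104.2, 124.1 and 112.4 at 24 hours. The first 6 values lay together and the 24-hour libraries stood above them. The log2 fold change was 0.02 at 12 hours (SE 0.034, adjusted p = 0.772) and 0.41 at 24 hours (SE 0.057, adjusted p = 2.14e-05), a level 1.33-fold higher that did not reach the 1.5-fold limit.

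Dusp4 encodes an inducible nuclear MAP kinase phosphatase (chr8:34807297-34819894, plus strand). It was lowest at 12 hours and highest at 24 hours. Its CPM were 34.6, 32.1 and 32.1 at time 0, 26.6, 27.9 and 27.9 at 12 hours, and 38.7, 42.4 and 40.4 at 24 hours, so that all 12-hour libraries lay below and all 24-hour libraries above those of time 0. The log2 fold change was -0.26 at 12 hours (SE 0.049, adjusted p = 0.00171) and 0.30 at 24 hours (SE 0.056, adjusted p = 0.000279), both under 1.5-fold. The step from 12 to 24 hours was 0.59 (SE 0.052, adjusted p = 3.09e-07), which is 1.501-fold and lies at the limit: the call was lost under 9 of the 14 alternatives that kept all libraries, DESeq2 among them, and without 12-hour replicate 1 (0.56) or 24-hour replicate 2 (0.55). With total counts in place of TMM factors the value at 24 hours against time 0 was 0.08 and that from 12 to 24 hours 0.36.

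Dusp5, a nuclear phosphatase specific for ERK (chr19:53529109-53542431, plus strand), was at the floor. It had 3, 2 and 0 counts at time 0, 3, 0 and 0 at 12 hours and 0 in each 24-hour library, so no fold is given and a change was not detectable at this depth. An antisense gene overlaps it, and the strand setting of the counting is not given in the sources used here.

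Spry4 stands for the Sprouty family here (chr18:38586247-38601415, minus strand). It had 75, 72 and 110 counts at time 0, 83, 56 and 48 at 12 hours, and 30, 65 and 52 at 24 hours, or 1.56, 1.54 and 2.02 CPM, then 1.82, 1.21 and 1.10, then 0.733, 1.35 and 1.10. The 12-hour range overlapped both others, and only the 24-hour and time 0 libraries stood apart. The log2 fold change was -0.31 at 12 hours (SE 0.218, adjusted p = 0.456) and -0.68 at 24 hours (SE 0.247, adjusted p = 0.0259), a 1.60-fold decrease. Counting noise at these counts is large, and the call rested on single libraries: without time 0 replicate 3 the value was -0.52 (adjusted p = 0.133), without 24-hour replicate 1 -0.48 (adjusted p = 0.0859), and without 24-hour replicate 3 -0.69 (adjusted p = 0.0519). Correcting for length and GC content of the transcripts left -0.40 (adjusted p = 0.156), and over all alternatives the adjusted p ran from 0.00567 to 0.577.

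Spred1 and Spred2 are membrane-bound inhibitors of RAS activation, and they parted at 24 hours. Spred1 (chr2:117121374-117182279, plus strand) had 103.2, 97.1 and 101.5 CPM at time 0 and 99.8, 97.6 and 97.6 at 12 hours, and then 57.1, 57.6 and 59.1 at 24 hours. The first 6 libraries overlapped and the last 3 were far below them. The log2 fold change was -0.03 at 12 hours (SE 0.034, adjusted p = 0.702), -0.79 at 24 hours (SE 0.043, adjusted p = 3.1e-09), a 1.73-fold decrease, and -0.74 from 12 to 24 hours (SE 0.037, adjusted p = 1.48e-09). Spred1 was the member that stayed called at 24 hours under every alternative.

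Spred2 (chr11:19924375-20024026, plus strand) had 99.2, 97.3 and 95.4 CPM at time 0, 99.0, 95.2 and 101.7 at 12 hours, and 80.8, 88.6 and 83.5 at 24 hours. The 24-hour libraries were all below the others, by little. The log2 fold change was 0.02 at 12 hours (SE 0.035, adjusted p = 0.762) and then -0.20 at 24 hours (SE 0.045, adjusted p = 0.00138). The sign at 24 hours turned to 0.045 with the length and GC correction, so no direction is given for Spred2.

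Etv4 and Etv5 are close relatives that bind the same ETS element, and their mRNAs stood on opposite sides of the starting level at 24 hours. Etv4 (chr11:101769742-101785371, minus strand) had 45.2, 49.8 and 47.0 CPM at time 0, 46.2, 45.3 and 46.3 at 12 hours, and 56.5, 54.9 and 55.3 at 24 hours. Only the 24-hour libraries stood apart, above the rest. On the log2 scale the change was -0.04 at 12 hours (SE 0.042, adjusted p = 0.662) and 0.24 at 24 hours (SE 0.050, adjusted p = 0.000762), under 1.5-fold, and with total counts it was 0.01 (adjusted p = 0.818).

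Etv5 (chr16:22381309-22439719, minus strand) had 19.3, 20.5 and 19.4 CPM at time 0, 18.1, 15.9 and 17.8 at 12 hours, and 11.4, 12.6 and 11.3 at 24 hours, so that each time lay below the one before it. Its log2 fold change was -0.19 at 12 hours (SE 0.066, adjusted p = 0.0858) and -0.74 at 24 hours (SE 0.075, adjusted p = 1.08e-06), a 1.67-fold decrease. From 12 to 24 hours it was -0.53 (SE 0.077, adjusted p = 3.38e-05), under the limit. With the length and GC correction the value at 24 hours against time 0 was -0.54, below 1.5-fold, which ended the call.

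Ratios of 2 genes within a library do not depend on its scaling, and these were computed for the 3 family pairs that could be read. With 3 against 3 libraries an exact two-sided permutation test cannot go below p = 0.1, so none of the 9 ratios could pass. The log2 ratio of Etv4 to Etv5 was 1.26 ± 0.030 (SD, n = 3) at time 0, 1.41 ± 0.085 at 12 hours and 2.24 ± 0.10 at 24 hours. In linear terms there were 2.34 to 2.43 Etv4 counts per Etv5 count at time 0 and 4.36 to 4.97 at 24 hours, without overlap. The log2 ratio of Spred1 to Spred2 was 0.048 ± 0.047, then -0.0037 ± 0.049, then -0.54 ± 0.071, and its 12-hour and time 0 libraries overlapped (difference -0.05, exact p = 0.3). For Dusp6 to Dusp4 it was 1.38 ± 0.051, 1.66 ± 0.034 and 1.48 ± 0.060, highest at 12 hours, when Dusp4 was lowest. Of the 9 differences 8 had groups that did not overlap, each with the smallest possible exact p of 0.1 (0.1125 after Benjamini-Hochberg adjustment over the 9). Among single genes, groups did not overlap for 27% at 12 hours and 73.9% in each 24-hour comparison. No share over other gene pairs was computed, so the count of 8 is a description only.

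**Figure D3:**
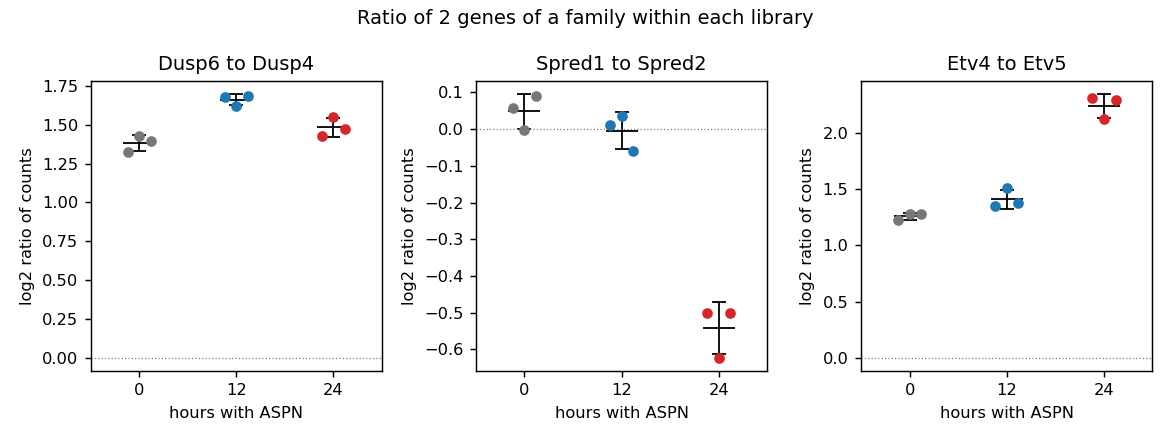
Log2 ratio of the counts of 2 genes in each library (vertical axes) against hours with ASPN, with the mean and SD of 3 libraries. The Etv4 to Etv5 ratio is above 2 in the 24-hour libraries and below 1.6 in all others, and the Spred1 to Spred2 ratio is below -0.4 only at 24 hours.

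The genes most like 4 of the members over the 9 libraries were picked by Pearson correlation of log2 CPM among 10845 genes, and libraries of 1 time share a treatment, so these are descriptions. Dusp6 was nearest to Tbl2 (r = 0.993), Slc2a1, a glucose transporter (0.992), and Srebf1, a regulator of lipid synthesis (0.992). Spred1 was nearest to Asxl1 (0.999), Yap1, the Hippo pathway effector (0.999), and Fam120a (0.999). Etv4 was nearest to Psip1 (0.989), Rbm25 (0.989) and Zranb2 (0.988). Spry4, at its low counts, was nearest to Mxd1 (0.948), Exosc1 (0.945) and Clns1a (0.937). No other member was among these 12 genes.

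Other MAP kinase phosphatases were called already at 12 hours. Of 6 tested, 2 rose at 12 hours: Dusp8 by 1.37 (log2, SE 0.057, adjusted p = 2.58e-11) and Dusp10 by 0.86 (SE 0.081, adjusted p = 9.86e-07), both known to prefer JNK and p38 over ERK. Against time 0 at 24 hours 3 rose and 2 fell, so 5 of 6 were called, where 28.8% of all genes were at 24 hours and 1.6% at 12 hours. Dusp1, an immediate early phosphatase for p38 and JNK, rose most, by 2.31 (SE 0.062, adjusted p = 8.15e-12), and Dusp10 rose by 0.93. Dusp2, a nuclear phosphatase, fell by 1.14, and Dusp7, a cytoplasmic ERK phosphatase and relative of Dusp6, fell by 0.77. The list medians were 0.44 at 12 hours and 0.49 at 24 hours, beside -0.005 and -0.016 for all genes. The phosphatases too were listed with earlier results of these data known, so their counts and medians are descriptions only. Of the other Sprouty, Spred and PEA3 genes, Spred3 alone was tested, with 0.14 at 12 hours (adjusted p = 0.486) and a rise of 0.60 at 24 hours (adjusted p = 6.71e-05).

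Other genes known as ERK outputs were also called at 12 hours. Of 11 tested, 3 rose and none fell at 12 hours: Ier3 by 1.70 (SE 0.044, adjusted p = 4.21e-14), Egr2 by 1.25 (SE 0.360, adjusted p = 0.0334) and Phlda1 by 0.62. Egr2 had few counts, 9 to 22 per library at time 0 and 24 to 43 at 12 hours, and a minimum of 10 counts in every library would leave it out. At 24 hours 8 rose and 2 fell, so 10 of 11 were called, against 28.8% of all genes (1.6% at 12 hours). This list was chosen with earlier results of these data known, so its counts and medians are descriptions only. The immediate early factors Egr1 and Fos rose most, by 4.35 and 3.31, and Myc and Ccnd1, which encodes cyclin D1, fell by 0.98 and 0.61. Egr1 went from 7.01 to 10.3 and 142.6 CPM, Ier3 from 54.1 to 175.3 and 229.2 and Phlda1 from 19.1 to 29.2 and 26.1, while Areg is not analysed here. The list medians were 0.42 and 1.25, and whether the list and the 7 feedback genes differ was not tested.

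Genes upstream of the feedback loop and of the JNK and p38 branches were read next. Of 20 genes from the ERBB receptors to ERK, none was called at 12 hours. At 24 hours Braf rose by 0.73 and Erbb2, the receptor HER2, fell by 0.96, with list medians of 0.028 and 0.026. Among 10 RAS GTPase-activating and scaffold inhibitors, none was called at 12 hours, and at 24 hours Errfi1, an inhibitor of ERBB receptors, rose by 0.74, Spred3 rose and Dab2ip fell by 0.93. Of 10 kinases of the JNK and p38 branches, none was called at 12 hours, and at 24 hours Mapk8 rose by 0.76, Mapk11 rose by 0.59 and Mapk14 fell by 0.81. The 24-hour counts were thus 2 of 20, 3 of 10 and 3 of 10, beside 28.8% of all genes, and those at 12 hours 0 of 20, 0 of 10 and 0 of 10, beside 1.6%.

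Regulators of the Etv factors were also read, in 1 list with other ETS factors such as Ets2 and Elk3. Of 11 tested, 1 was called at 12 hours and 3 at 24 hours, beside 1.6% and 28.8% of all genes. The 12-hour call was Ets2, an ETS factor phosphorylated by ERK, which rose by 0.60 (SE 0.034, adjusted p = 1.4e-09). At 24 hours Cop1, a ubiquitin ligase that targets Etv proteins, rose by 0.62, whereas Elk3 fell by 0.63. Cic fell by 0.98 (SE 0.060, adjusted p = 9.33e-09), from 145.3 ± 6.41 CPM at time 0 and 151.5 ± 0.705 at 12 hours to 73.4 ± 6.67 at 24 hours (SD, n = 3). Of the genes known to be repressed by Capicua, Etv5 and Spry4 were lower at 24 hours in the same libraries, and Dusp6 and Etv4 were higher by less than 1.5-fold. Neither decrease stayed called after the length and GC correction, and the Spry4 call rested on single libraries. With total counts Etv4 did not pass the adjusted p. The relation of these changes to the Cic level was not tested.

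**Figure D4:**
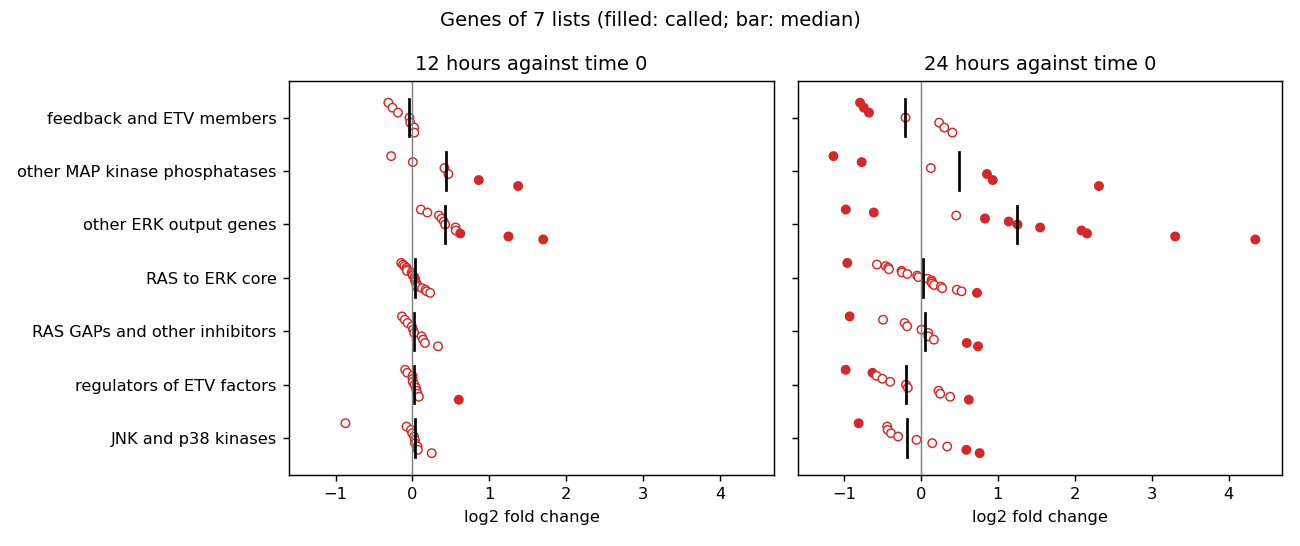
Log2 fold changes (horizontal axes) of the tested genes of 7 lists at 12 hours (left) and 24 hours (right) against time 0, filled where called, with the list median as a bar. The median of the other ERK output genes is 0.42 and then 1.25, and that of the 7 feedback and Etv genes -0.039 and then -0.20. The lists were chosen with earlier results of these data known.

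Scaling and bias corrections moved some of these values. With total counts in place of TMM factors the median log2 fold change of all genes at 24 hours was -0.238 in place of -0.016, and Dusp6 was then 0.19, Etv4 0.01, Spred2 -0.42, Etv5 -0.96 and Spred1 -1.01. Dusp4 (0.08, adjusted p = 0.194) and Etv4 (adjusted p = 0.818) then no longer passed the adjusted p.

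**Figure D5:**
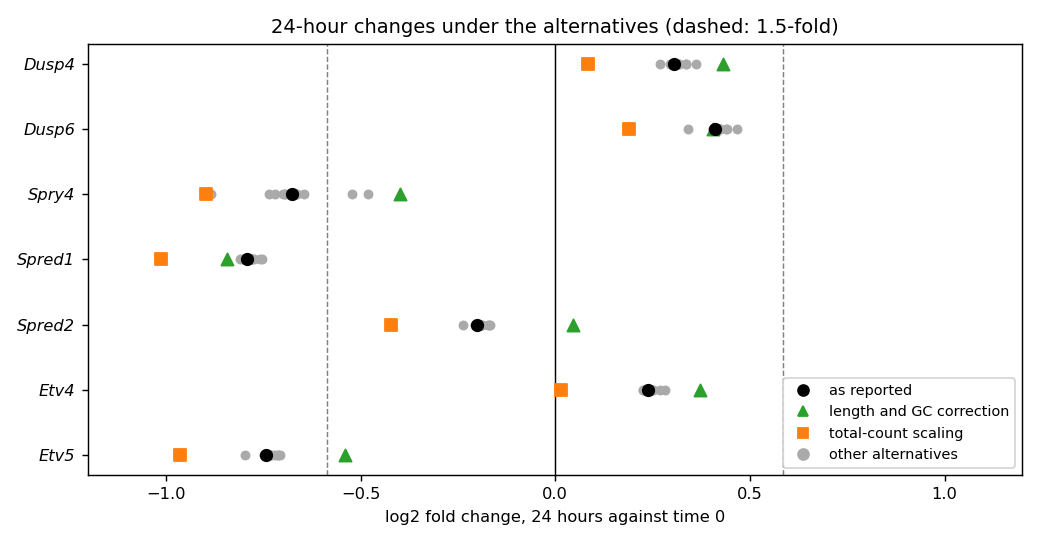
Log2 fold changes of the 7 genes at 24 hours against time 0 (horizontal axis) as reported and under the alternatives, with dashed lines at 1.5-fold. The length and GC correction with the replicate block is not drawn. Spred1 lies beyond the lower line under every alternative drawn, while Etv5 (-0.54) and Spry4 (-0.40) lie inside it after the length and GC correction. Spry4 also lies inside it without time 0 replicate 3 (-0.52) or 24-hour replicate 1 (-0.48).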

How the data were processed

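RNA-Seq of 9 MyC-CaP libraries (3 each at 0, 12 and 24 hours with ASPN) was used. Per the labels and the study's methods, the authors made TruSeq mRNA libraries, aligned reads with STAR to GRCm38.p6 and counted them with featureCounts. Raw counts of 15384 genes were deposited. Strand setting is not given in the sources used here. The software was edgeR 4.0.16, limma 3.58.1 and DESeq2 1.42.0 under R 4.3.3. For each pair of times, low genes of the 6 libraries were removed (filterByExpr), TMM factors were computed, and the quasi-likelihood test of edgeR was run, with p-values adjusted by Benjamini-Hochberg over all genes tested. CPM is TMM scaled over the 9 libraries, and RPKM uses exon lengths of GENCODE M21, in which 15374 genes were matched by identifier. Ratios used counts plus 0.5. Replicates of 1 time differed beyond sampling noise (3.41 to 17.5 chi-square units per degree of freedom). The depth of 41881191 to 52993821 counts sets counting error only.

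The members and gene lists were chosen with earlier results of these data known. All members were named. List genes were named where called at 12 hours, and otherwise the 2 highest and 2 lowest called at 24 hours, and 3 genes most like each of 4 members by Pearson correlation. Alternatives were DESeq2's Wald test, limma-voom, RLE, upper-quartile and total-count scaling, TMM without mitochondrially encoded genes, no filter, a minimum of 10 counts per library, a single fit of the 9 libraries, a block for the replicate number, glmTreat at 1.5-fold, the adjusted p alone, a loess correction for length and GC content (span 0.3) with and without the block, and leaving out each library. Calculations were tested on simulated data. Spry1 and Spry2 are not analysed here, and some of the marker genes are not reported here. Promoter sequences came from RefSeq.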

Additional observations from a re-analysis of the deposited data

Results flagged for a closer look

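Dusp4 was flagged because the difference between its 24-hour and 12-hour levels was called, by both the adjusted p and the 1.5-fold limit. That difference was 0.59 on the log2 scale (1.501-fold, SE 0.052, adjusted p = 3.09e-07 by Benjamini-Hochberg in edgeR). All 3 later libraries lay above all 3 earlier ones. In this comparison 25.7% of 11394 genes were called, and groups did not overlap for 73.9%. The Dusp4 call was lost under 9 of the 14 alternatives that kept all libraries. Spred1 was flagged by the same test, with -0.74 (SE 0.037, adjusted p = 1.48e-09) and all 3 later libraries below all 3 earlier ones. The cause of either difference was not tested.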

How the results depend on the processing

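The count of called members at 12 hours, 0, became 1 with the adjusted p alone and stayed 0 with each library left out. At 24 hours against time 0, 3 became 7 with the adjusted p alone, 1 with the length and GC correction, also with the replicate block added, and 2 to 3 with a library left out. From 12 to 24 hours, 2 became 6 with the adjusted p alone, 1 with DESeq2, RLE factors, TMM without mitochondrial genes, no filter, at least 10 counts, all libraries in one fit, the replicate block or glmTreat, and 1 to 3 with a library left out: the Dusp4 call was lost without 12-hour replicate 1 or 24-hour replicate 2, and Etv5 was gained without 12-hour replicate 2 (-0.59) or 24-hour replicate 2 (-0.59), and with total counts (-0.76), under which Dusp4 was also lost (0.36). Signs turned for Dusp6 at 12 hours (-0.011 with the length and GC correction, with and without the block, and -0.0013 to 0.035 with a library left out) and for Spred2 with that correction, at 24 hours (0.045, and 0.044 with the block) and from 12 to 24 hours (0.044 in both). Spry4 at 24 hours also lost its call with glmTreat (adjusted p = 0.577). Over all genes, 182, 3298 and 2924 calls at 12 hours, at 24 hours and between them became 88, 2101 and 1768 with glmTreat and 1178, 8119 and 8124 with the adjusted p alone, and the 1374 higher and 1924 lower calls at 24 hours became 698 and 3008 with total counts and 1470 and 1446 with the length and GC correction. The 9 family ratios kept their direction with another pseudocount, medians, the block and each library left out. They were not run with the length and GC correction, under which Dusp6 and Dusp4 at 24 hours were 0.41 and 0.43, an order opposite to that of their ratio. The cause of these changes was not tested.

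The replicate numbers did not pair the libraries: correlations of same-numbered libraries' deviations were -0.106 to 0.0566, and in 3 of 18 cases a library correlated best with its own number. With the replicate block, 3 members were called at 24 hours against time 0 and 1 from 12 to 24 hours.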
